A study of Mus musculus with 18 samples.

Results

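The genes described here are 32 genes of sterol and fatty acid synthesis that sterol regulatory element-binding proteins (SREBPs) are known to drive. They were chosen by name, as the rows whose Entrez Gene identifiers map to the mouse symbols of a fixed list. All 32 were found among the 22792 genes of the tables and all 32 had enough counts to be tested, with at least 109 counts in every tumor. By role, 4 are regulators or carriers of sterol, 18 are enzymes of the sterol pathway and 10 belong to the fatty acid arm. RNA was sequenced from 18 mammary tumors, with 1 library per tumor. Every mouse was a Balb/c female that had received 300000 cells of 4T1, a triple-negative mammary carcinoma line of that strain, in the mammary fat pad at 8 weeks of age. Treatment ran from day 7 after injection, and tumors were taken on day 21. The groups were Vehicle (n = 5, no inhibitor), PI3Ki (n = 4, the pan-PI3K inhibitor CLR457), SHP2i (n = 4, the allosteric SHP2 inhibitor SHP099) and Combo (n = 5, both inhibitors). All tumors came from a single cell line grown in its host strain, and each sample is a whole tumor that also holds host cells.

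Cells build cholesterol from acetyl-CoA through the mevalonate pathway, squalene and lanosterol, and build fatty acids from the same acetyl-CoA with NADPH as the reductant. SREBPs are transcription factors held in the endoplasmic reticulum while sterols are plentiful, retained there with the help of Insig proteins, and released when sterols fall. SREBP-2 is best known for the sterol enzymes and SREBP-1 for the fatty acid enzymes, and PI3K-AKT-mTOR signaling is a known activator of SREBP processing.

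Levels are given as CPM, counts per M counts of a library (M for mega) after TMM scaling. A change is a log2 fold change fitted by edgeR, so that -1 means a level 50% lower, and a gene is called where its p, adjusted over all 15282 genes tested, is below 0.05. Libraries held 21.16 to 26.62 M counts, and no pair of libraries of the same group agreed within sampling noise. The luminal keratins Krt8 and Krt18, at means of 519.6 and 379 CPM over all tumors, marked the carcinoma cells, and markers of macrophages, endothelium and fibroblasts were present as well. In such bulk samples, fewer cells of a type and less RNA per cell cannot be told apart.

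Divided by the length of their exons, the desaturases Scd2 and Scd1 stood highest in Vehicle tumors, at 113 and 107 CPM per kilobase. ATP citrate lyase Acly, which makes cytosolic acetyl-CoA from citrate, followed at 39.5, the desaturase Fads1 at 27.3 and HMG-CoA synthase Hmgcs1 at 26.4 CPM per kilobase. The lowest were the sterol reductases Tm7sf2 at 3.18 and Hsd17b7 at 3.82 and lanosterol synthase Lss at 3.50 CPM per kilobase. Exons of 12 members share bases with another annotated gene, and the strand setting of the counting is not given in the sources used here. Part of the reads assigned to these genes may therefore belong to a neighbor. The shared stretch is 1124 of 4208 exon bases for Fdps, shared with Gm43738 on the same strand, and 774 of 4227 for Fdft1, shared with Ctsb on the other strand. It is 532 of 4403 for Tm7sf2, shared with Vps51 on the same strand, 557 of 4594 for Hmgcs1 and 323 of 3505 for Idi1. The other 20 members share no exon bases.

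Promoter sequence was looked up in a RefSeq table (build GRCm38.p6) of windows that run from 250 bases before to 50 bases after each start site. Of the 32 members, 25 had 31 windows between them. The core of the sterol regulatory element (TCACNCCAC) was searched on both strands, with the NF-Y box (CCAAT), the Sp1 box (GGGCGG) and the E-box (CACGTG), since SREBPs are known to bind DNA next to NF-Y and Sp1. The NF-Y box was found in 71.0% of the member windows and in 37.4% of all 32851 windows of the table. The Sp1 box was in 74.2% of the member windows and 35.7% of all, and the E-box in 12.9% and 7.15%. The exact sterol element core was in 3.23% of the member windows, namely that of Hmgcs1, and in 1.24% of all windows. The 250 bases before the start site are printed 5′ to 3′ on the strand of the gene for 5 members, with sterol element cores and NF-Y boxes in capitals (ATTGG is the NF-Y box on the other strand). Idi1, Msmo1, Srebf2 and Elovl6 had the smallest p in Combo against Vehicle among the members of their steps with a window. Me1, which was higher in Combo, and Lss met the same rule and are not printed. Hmgcs1 was added after its match was seen. Hmgcs1 lies at chr13:119690101-119690350 (plus strand), Idi1 at chr13:8885356-8885605 (plus), Msmo1 at chr8:64733579-64733828 (minus), Srebf2 at chr15:82147019-82147268 (plus) and Elovl6 at chr3:129532136-129532385 (plus).
Hmgcs1: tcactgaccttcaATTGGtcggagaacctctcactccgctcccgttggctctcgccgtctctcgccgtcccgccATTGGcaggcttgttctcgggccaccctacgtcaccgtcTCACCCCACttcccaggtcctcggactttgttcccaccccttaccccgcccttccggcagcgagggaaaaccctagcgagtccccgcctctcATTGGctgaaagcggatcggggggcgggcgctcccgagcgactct
Idi1: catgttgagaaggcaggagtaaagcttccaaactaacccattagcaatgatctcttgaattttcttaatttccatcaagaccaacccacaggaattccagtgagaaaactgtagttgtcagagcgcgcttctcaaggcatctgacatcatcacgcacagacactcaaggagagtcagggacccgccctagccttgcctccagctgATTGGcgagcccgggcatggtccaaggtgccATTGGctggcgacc
Msmo1: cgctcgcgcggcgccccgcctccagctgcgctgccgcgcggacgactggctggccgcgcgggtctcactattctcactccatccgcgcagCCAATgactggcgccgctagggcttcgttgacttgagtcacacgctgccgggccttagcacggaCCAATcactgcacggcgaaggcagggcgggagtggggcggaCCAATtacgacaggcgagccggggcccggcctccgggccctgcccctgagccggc
Srebf2: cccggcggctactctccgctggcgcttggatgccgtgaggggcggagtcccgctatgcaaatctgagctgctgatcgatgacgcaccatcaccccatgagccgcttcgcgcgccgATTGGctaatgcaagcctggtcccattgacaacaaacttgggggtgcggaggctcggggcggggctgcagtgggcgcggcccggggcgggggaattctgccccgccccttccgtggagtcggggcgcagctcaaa
Elovl6: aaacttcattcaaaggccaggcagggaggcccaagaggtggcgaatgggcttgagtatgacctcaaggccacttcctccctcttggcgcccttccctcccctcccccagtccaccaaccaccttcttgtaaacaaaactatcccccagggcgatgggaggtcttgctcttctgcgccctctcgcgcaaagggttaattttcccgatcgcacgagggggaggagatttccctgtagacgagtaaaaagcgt
The Hmgcs1 stretch held the sterol element core 137 bases before the start, with 3 NF-Y boxes around it, and the Msmo1 stretch also held 3 NF-Y boxes. Idi1 had 2 of them close to its start and Srebf2 had 1. The Elovl6 stretch held neither of these motifs. Whether a match goes with a change in level was not tested. A match is a description of letters in the reference genome, and a missing match says only that these letters are not in this window.

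Most sterol synthesis enzymes were lower in the tumors given the PI3K inhibitor, and all of them were lower in the tumors given both inhibitors. Of the 18 sterol synthesis enzymes, 12 were lower in PI3Ki, 0 changed in SHP2i and 18 were lower in Combo than in Vehicle. Over all 32 members, edgeR called 16 lower and 0 higher in PI3Ki (DESeq2 17 and 0, limma voom 16 and 0), beside 2.42% of all genes lower and 2.69% higher. An unadjusted p under 0.05 was found for 24 members in PI3Ki, all of them lower, beside 19.5% of all genes. In Combo, 25 members were lower and 2 higher, beside 19.7% of all genes lower and 23.9% higher. In SHP2i, 2 members were higher and 0 lower by edgeR, DESeq2 and limma voom, beside 5.05% of all genes higher and 6.54% lower, and 6 members had an unadjusted p under 0.05, beside 29.3% of all genes. These shares lie so near the background, or under it, that nothing is read from them about the members. The median log2 fold change of the members was -0.41 in PI3Ki, -0.02 in SHP2i and -0.47 in Combo, beside 0.01, 0.02 and 0.02 over all genes tested. These 3 comparisons share the 5 Vehicle tumors and are not independent of each other.

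**Figure D1:**
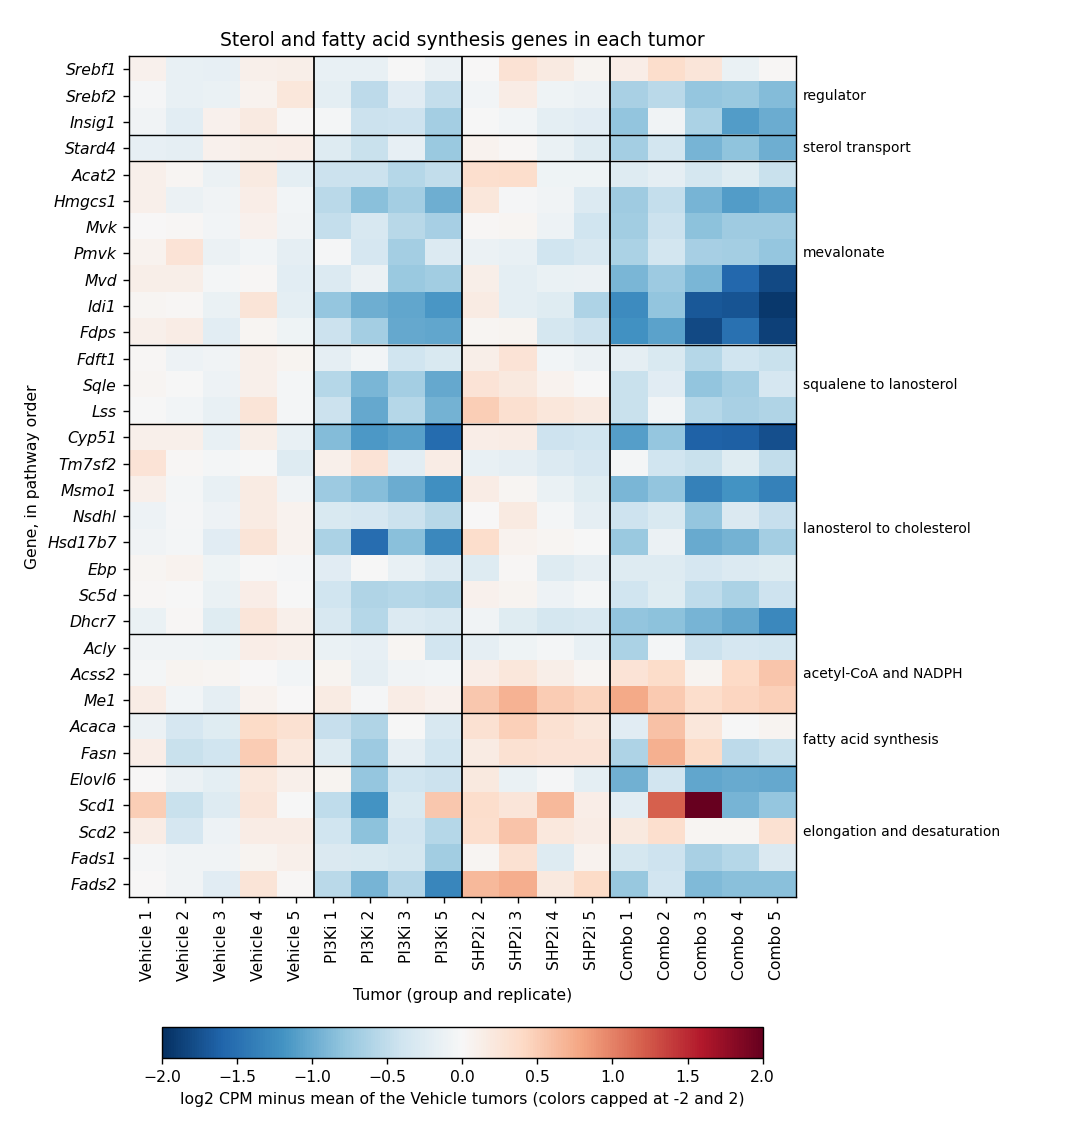
Each row is a gene, in pathway order, and each column a tumor; color is log2 CPM minus the mean of the 5 Vehicle tumors, capped at -2 and 2. The rows from Acat2 to Dhcr7 were mostly blue in the 4 PI3Ki and 5 Combo tumors, and Scd1 was deepest red in Combo 2 and Combo 3.

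The mean log2 level of the 18 sterol enzymes, relative to the mean of the Vehicle tumors, lay between -0.12 and 0.12 in Vehicle, -0.74 and -0.42 in PI3Ki, -0.22 and 0.11 in SHP2i, and -0.93 and -0.46 in Combo. The PI3Ki and Combo tumors were thus all below the Vehicle and SHP2i tumors, while PI3Ki and Combo overlapped each other. Combo 2 was the least reduced of its group, at -0.46. For 17 of the 32 members, every PI3Ki tumor was below every Vehicle tumor, beside 5.36% of all genes. In Combo, 19 members were lower and 2 higher than in any Vehicle tumor, beside 13.4% and 15.5% of all genes.

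**Figure D2:**
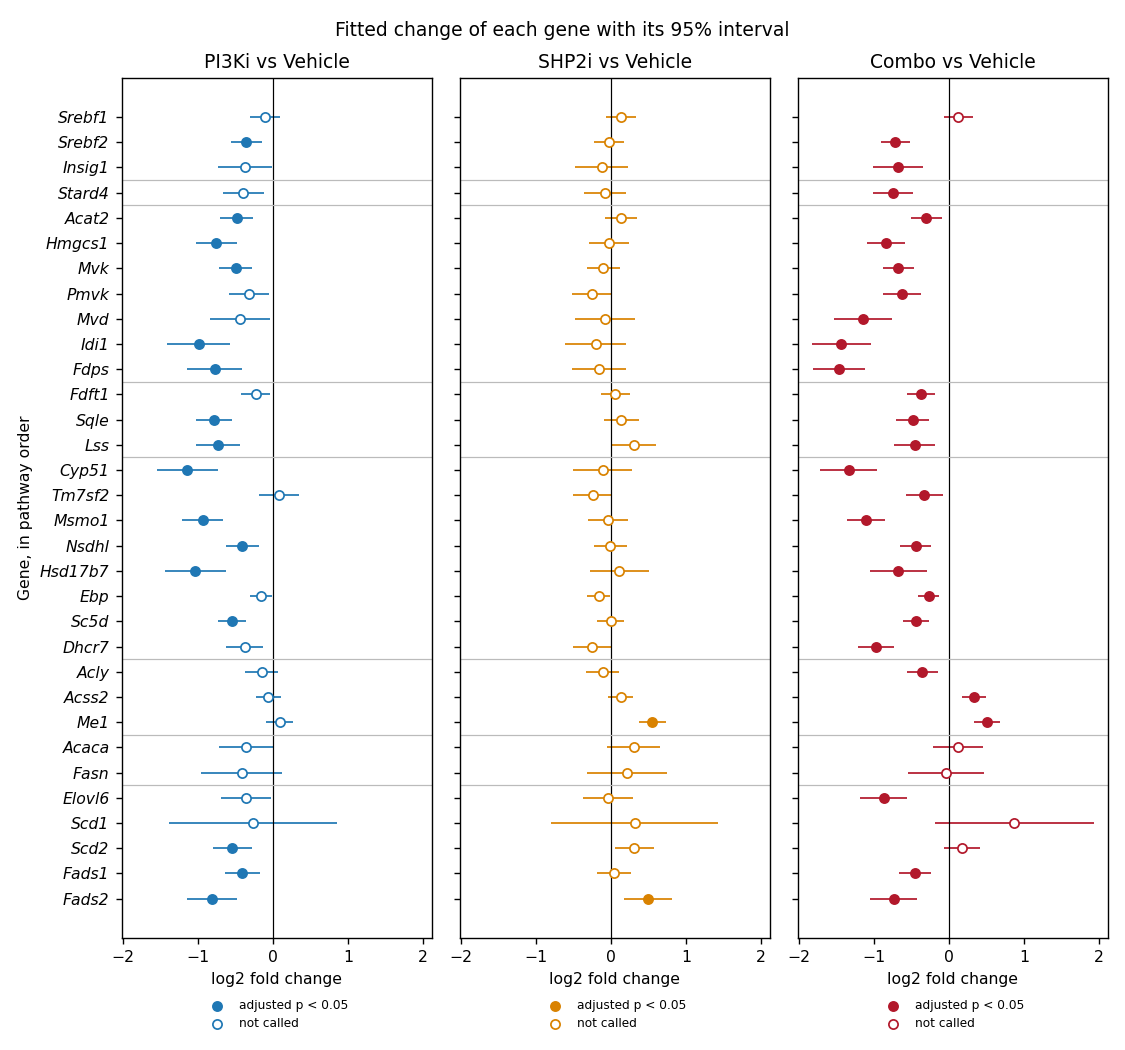
Fitted log2 fold change against Vehicle (horizontal axis) of each gene in PI3Ki, SHP2i and Combo, with its 95% interval as a line; filled points have an adjusted p under 0.05 and open points do not. All 18 enzymes from Acat2 to Dhcr7 were called lower in Combo, none of them in SHP2i, and Me1 was called higher in SHP2i and Combo.

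Among the regulators, Srebf2, the gene of SREBP-2, fell with PI3K inhibition and fell further with both inhibitors. It stood at 151, 138, 139, 159.7 and 179 CPM in the Vehicle tumors, 134, 106, 130.4 and 109.6 in PI3Ki, 147, 169, 144 and 141 in SHP2i and 96.8, 105, 89.4, 91.6 and 83.3 in Combo. Each PI3Ki tumor was below each Vehicle tumor, and each Combo tumor below each PI3Ki tumor. The log2 fold change was -0.36 (SE 0.0972, adjusted p = 0.0423) in PI3Ki, -0.03 (SE 0.0966, adjusted p = 0.87) in SHP2i and -0.72 (SE 0.0917, adjusted p = 1.48e-05) in Combo. The PI3Ki call was close to the threshold, and it was lost in 9 of the 18 fits that left out a single tumor, with an adjusted p of up to 0.129 (without PI3Ki 5). Srebf1, the gene of SREBP-1, was at a mean of 131 ± 12.8 CPM (SD, n = 5) in Vehicle, 122 ± 5.66 (n = 4) in PI3Ki, 144 ± 13.1 (n = 4) in SHP2i and 143 ± 18.5 (n = 5) in Combo, and was called in none of these comparisons. Its counts pool the transcripts of its different start sites, since the tables hold 1 value per gene. Insig1, which retains SREBP in the endoplasmic reticulum and is itself an SREBP target, fell in Combo by 0.68 (SE 0.16, adjusted p = 0.00263) on the log2 scale. In PI3Ki the value for Insig1 was -0.38 (SE 0.17, adjusted p = 0.229). Insig1 was at 70.2, 63.5, 78.4, 82.95 and 74.7 CPM in Vehicle and 42.5, 70.02, 47.3, 33.95 and 36.9 in Combo. Combo 2 lay within the Vehicle range and the other Combo tumors below it. Stard4, a cytosolic sterol carrier, was at 36.9, 36.7, 44.04, 45.0 and 45.5 CPM in the Vehicle tumors, 34.8, 30.2, 36.8 and 24.8 in PI3Ki, 43.6, 41.9, 37.6 and 34.5 in SHP2i and 25.8, 31.9, 21.7, 23.7 and 21.1 in Combo. All Combo tumors were below all Vehicle tumors, and PI3Ki overlapped Vehicle by a narrow margin. Stard4 changed by -0.74 (SE 0.125, adjusted p = 0.000171) in Combo, and its value in PI3Ki was -0.39 (SE 0.132, adjusted p = 0.0962).

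The 7 genes that lead from acetyl-CoA to farnesyl diphosphate were all lower in Combo, 5 were lower in PI3Ki, and none was called in SHP2i. The largest falls of all members in Combo, those of Fdps and Idi1, were here, while in PI3Ki they were those of Cyp51 and Hsd17b7. Fdps, which makes farnesyl diphosphate, the branch point to squalene and to protein prenylation, was at 96.1, 99.05, 76.8, 91.7 and 83.7 CPM in the Vehicle tumors, 66.2, 55.6, 43.6 and 43.2 in PI3Ki, 91.9, 92.4, 69.8 and 65.8 in SHP2i and 38.6, 42.5, 25.3, 31.6 and 24.4 in Combo. Each Combo tumor was below each PI3Ki tumor, and each PI3Ki tumor below each Vehicle tumor. The log2 fold change of Fdps was -0.78 (SE 0.172, adjusted p = 0.013) in PI3Ki, -0.16 (SE 0.169, adjusted p = 0.552) in SHP2i and -1.46 (SE 0.164, adjusted p = 4.11e-06) in Combo, the last equal to a level 63.7% lower. The PI3Ki call of Fdps was lost without PI3Ki 5, at an adjusted p of 0.0512. Idi1, the isomerase that supplies both isoprene units, was at 60.8, 60.05, 53.9, 70.4 and 51.6 CPM in the Vehicle tumors, 34.5, 29.9, 28.7 and 26.2 in PI3Ki, 66.4, 51.5, 49.98 and 38.6 in SHP2i and 24.6, 33.9, 18.1, 17.8 and 15.4 in Combo. PI3Ki and Combo tumors were all below the lowest Vehicle tumor, at 51.6 CPM, and also below the lowest SHP2i tumor, at 38.6 CPM. The log2 fold change of Idi1 was -0.99 (SE 0.197, adjusted p = 0.00628) in PI3Ki and -1.44 (SE 0.186, adjusted p = 1.71e-05) in Combo.

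Hmgcs1, whose promoter carried the sterol element core, makes HMG-CoA, from which mevalonate is formed. It was at 130.0, 112, 115, 133 and 117 CPM in the Vehicle tumors, 83.3, 67.4, 75.6 and 61.2 in PI3Ki, 142, 119, 116 and 101 in SHP2i and 73.97, 87.01, 63.5, 55.5 and 58.7 in Combo. The PI3Ki and Combo values overlapped each other and both lay below every Vehicle and SHP2i value. The log2 fold change of Hmgcs1 was -0.75 (SE 0.13, adjusted p = 0.002) in PI3Ki and -0.84 (SE 0.122, adjusted p = 4.61e-05) in Combo, and in SHP2i it was -0.02 with a 95% interval of -0.29 to 0.24. Mvk, mevalonate kinase, was at 21.8, 22.2, 20.97, 22.97 and 20.7 CPM in the Vehicle tumors, 15.6, 17.5, 14.8 and 13.7 in PI3Ki, 22.1, 22.3, 20.3 and 16.4 in SHP2i and 13.4, 16.1, 12.2, 13.3 and 13.2 in Combo. Its PI3Ki and Combo tumors were again all below Vehicle, with -0.50 (SE 0.104, adjusted p = 0.00889) and -0.67 (SE 0.098, adjusted p = 4.85e-05). Mvd, the decarboxylase that makes isopentenyl diphosphate, was at 18.4, 18.5, 16.5, 17.4 and 14.7 CPM in the Vehicle tumors, 14.1, 15.6, 10.2 and 10.5 in PI3Ki, 18.4, 14.9, 15.4 and 15.7 in SHP2i and 8.97, 10.2, 8.97, 5.66 and 4.83 in Combo. PI3Ki overlapped Vehicle for Mvd, with PI3Ki 3 and PI3Ki 5 low and the other 2 near the lowest Vehicle tumor, and the PI3Ki value was -0.44 (SE 0.191, adjusted p = 0.211). Combo lay below every Vehicle and SHP2i tumor, and Mvd changed by -1.14 (SE 0.182, adjusted p = 0.00011) there. Acat2, the thiolase ahead of Hmgcs1, fell in PI3Ki by 0.48 (SE 0.103, adjusted p = 0.0107) and in Combo by 0.30 (SE 0.0968, adjusted p = 0.018), with means of 51.8 ± 5.49, 37.1 ± 1.67 and 42.04 ± 3.12 CPM (SD) in Vehicle, PI3Ki and Combo. The Combo call of Acat2 was lost without Vehicle 4, at an adjusted p of 0.0531. Pmvk, phosphomevalonate kinase, was at a mean of 25.2 ± 3.23 in Vehicle, 20.2 ± 3.73 in PI3Ki, 21.2 ± 2.06 in SHP2i and 16.3 ± 1.8 in Combo (CPM, SD). It fell in Combo by 0.63 (SE 0.12, adjusted p = 0.000496), and its value in PI3Ki was -0.32 (SE 0.127, adjusted p = 0.165).

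**Figure D3:**
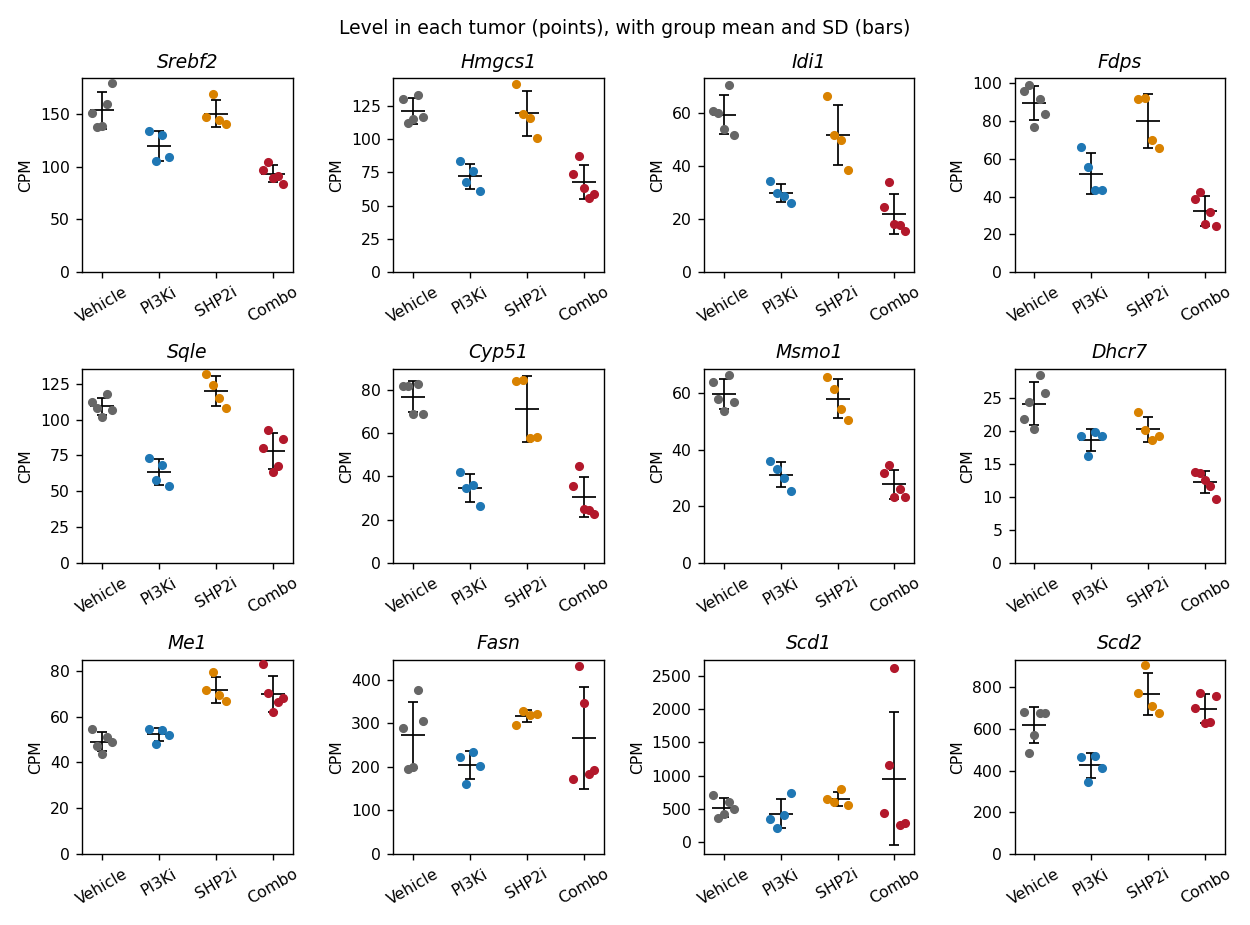
CPM of 12 members in each tumor (points) with the group mean and SD (bars), each panel on its own linear axis. Fdps and Dhcr7 were lower in every Combo tumor than in any PI3Ki tumor, Sqle was lowest in PI3Ki, and Me1 was higher in all SHP2i and Combo tumors than in any other tumor.

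Of the 3 enzymes from farnesyl diphosphate to lanosterol, 2 were lower in PI3Ki and 3 in Combo. Sqle, squalene epoxidase, a rate-limiting enzyme of the pathway, was at 112, 108, 102, 118 and 106 CPM in the Vehicle tumors, 73.4, 57.9, 68.2 and 53.7 in PI3Ki, 132, 124, 115 and 108 in SHP2i and 80.4, 92.96, 63.3, 67.8 and 86.4 in Combo. All PI3Ki and Combo tumors were below Vehicle, and 3 of the 5 Combo tumors were above the highest PI3Ki tumor. Sqle changed by -0.79 (SE 0.113, adjusted p = 0.00037) in PI3Ki and by -0.48 (SE 0.105, adjusted p = 0.00147) in Combo. Lss, which closes the sterol ring, changed by -0.73 (SE 0.14, adjusted p = 0.00502) in PI3Ki and -0.46 (SE 0.131, adjusted p = 0.0096) in Combo, with group means of 37.8 ± 4.31 CPM in Vehicle, 22.7 ± 4.57 in PI3Ki and 27.5 ± 5.07 in Combo (SD). In SHP2i the Lss value was 0.30 (SE 0.137, adjusted p = 0.15), at a mean of 46.6 ± 4.55 CPM. Fdft1, squalene synthase, was at 71.5 ± 4.2 in Vehicle, 60.95 ± 6.22 in PI3Ki, 74.4 ± 9.05 in SHP2i and 55.1 ± 5.53 in Combo (mean CPM, SD). It fell in Combo by 0.38 (SE 0.0874, adjusted p = 0.00239), and its value in PI3Ki was -0.23 (SE 0.0927, adjusted p = 0.171).

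All 8 enzymes that convert lanosterol to cholesterol fell in Combo and 5 fell in PI3Ki. Cyp51, the demethylase that acts on lanosterol, was at 81.6, 81.7, 68.9, 82.6 and 68.9 CPM in the Vehicle tumors, 42.0, 34.5, 36.04 and 26.3 in PI3Ki, 84.04, 84.7, 57.6 and 58.3 in SHP2i and 35.4, 44.6, 24.97, 24.7 and 22.6 in Combo. The PI3Ki and Combo tumors, up to 44.6 CPM, all lay below the Vehicle and SHP2i tumors, from 57.6 CPM. Cyp51 changed by -1.14 (SE 0.193, adjusted p = 0.00169) in PI3Ki and by -1.33 (SE 0.181, adjusted p = 2.56e-05) in Combo. Msmo1, the methylsterol oxidase whose promoter stretch held 3 NF-Y boxes, was at 64.03, 57.97, 53.6, 66.5 and 56.8 CPM in the Vehicle tumors, 36.02, 33.1, 29.99 and 25.6 in PI3Ki, 65.8, 61.5, 54.3 and 50.6 in SHP2i and 31.7, 34.6, 23.3, 26.0 and 23.3 in Combo. Its groups separated in the same way as those of Cyp51, with -0.94 (SE 0.13, adjusted p = 0.000254) in PI3Ki and -1.11 (SE 0.122, adjusted p = 3.59e-06) in Combo, the smallest p of all members. Sc5d, a sterol desaturase late in the pathway, was at 24.1, 23.7, 21.8, 26.1 and 23.7 CPM in the Vehicle tumors, 18.01, 15.7, 16.1 and 15.7 in PI3Ki, 25.4, 24.7, 22.3 and 23.1 in SHP2i and 18.1, 20.2, 16.7, 15.3 and 17.9 in Combo. It changed by -0.55 (SE 0.0865, adjusted p = 0.000932) in PI3Ki and -0.44 (SE 0.0809, adjusted p = 0.000405) in Combo, and in SHP2i its log2 fold change had a 95% interval of -0.18 to 0.18.

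Dhcr7, the reductase of the last step to cholesterol, was lower in Combo than in either single treatment. It was at 21.8, 24.4, 20.2, 28.4 and 25.6 CPM in the Vehicle tumors, 19.2, 16.1, 19.7 and 19.2 in PI3Ki, 22.9, 20.2, 18.7 and 19.2 in SHP2i and 13.8, 13.6, 12.6, 11.7 and 9.74 in Combo. Every Combo tumor was below every PI3Ki and SHP2i tumor, and the PI3Ki tumors were below Vehicle by a narrow margin. Dhcr7 changed by -0.97 (SE 0.112, adjusted p = 5.23e-06) in Combo, a level 49.1% lower, while the PI3Ki value of -0.38 (SE 0.117, adjusted p = 0.0742) did not pass. Against SHP2i, Combo was at -0.72 (SE 0.117, adjusted p = 0.000598). Hsd17b7, a keto-sterol reductase, had its lowest mean in PI3Ki, at 19.5 ± 2.48 CPM in Vehicle, 9.48 ± 2.66 in PI3Ki, 21.1 ± 2.48 in SHP2i and 12.2 ± 3.3 in Combo (SD). It changed by -1.04 (SE 0.193, adjusted p = 0.00385) in PI3Ki and -0.67 (SE 0.178, adjusted p = 0.00598) in Combo, and the difference of Combo from PI3Ki was 0.37 (SE 0.191, adjusted p = 0.143). Nsdhl, which removes methyl groups together with Msmo1, changed by -0.41 (SE 0.103, adjusted p = 0.028) and -0.44 (SE 0.0967, adjusted p = 0.0015) in the same comparisons. Its means were 31.4 ± 2.6 in Vehicle, 23.7 ± 1.83 in PI3Ki, 31.3 ± 3.25 in SHP2i and 23.1 ± 3.03 in Combo (CPM, SD). The PI3Ki call of Nsdhl was lost in 5 of the 18 fits that left out a single tumor. Ebp, the isomerase that moves the ring double bond, fell in Combo by 0.27 (SE 0.0663, adjusted p = 0.00337) and Tm7sf2 by 0.33 (SE 0.117, adjusted p = 0.0315). Ebp was at 41.5 ± 1.73 in Vehicle, 37.1 ± 3.08 in PI3Ki, 36.97 ± 3.53 in SHP2i and 34.3 ± 0.897 in Combo, and Tm7sf2 at 14.02 ± 1.85 in Vehicle, 14.8 ± 2.03 in PI3Ki, 11.8 ± 0.747 in SHP2i and 11.2 ± 1.51 in Combo (mean CPM, SD). The Tm7sf2 call was lost in 5 of the same 18 fits, with an adjusted p of up to 0.0787 (without Combo 5). In PI3Ki, Tm7sf2 stood at 0.08 (SE 0.124, adjusted p = 0.796) and Ebp at -0.16 (SE 0.0703, adjusted p = 0.221).

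The fatty acid arm held genes called in both directions in Combo. Of its 10 genes, 3 were lower in PI3Ki (Scd2, Fads1 and Fads2), 2 were higher in SHP2i (Me1 and Fads2), and in Combo 2 were higher (Me1 and Acss2) and 4 lower (Acly, Elovl6, Fads1 and Fads2). The share higher in Combo was below the 23.9% of all genes. Of all genes, 2.42% were lower in PI3Ki, 5.05% higher in SHP2i and 19.7% lower in Combo. The mean log2 level of the 10 genes relative to Vehicle lay between -0.19 and 0.20 in Vehicle, -0.57 and -0.21 in PI3Ki, 0.14 and 0.33 in SHP2i, and -0.34 and 0.25 in Combo. The PI3Ki tumors were below all Vehicle tumors, while Combo 1, Combo 4 and Combo 5 lay below the Vehicle range, Combo 3 within it and Combo 2 above it.

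Me1, cytosolic malic enzyme and a source of NADPH, rose with SHP2 inhibition. It was at 54.5, 47.3, 43.4, 51.2 and 49.03 CPM in the Vehicle tumors, 54.6, 48.1, 54.04 and 51.97 in PI3Ki, 71.4, 79.7, 69.3 and 66.6 in SHP2i and 82.9, 70.2, 62.2, 66.2 and 68.1 in Combo. All SHP2i and all Combo tumors were above all Vehicle and PI3Ki tumors. Me1 changed by 0.55 (SE 0.085, adjusted p = 0.00067) in SHP2i, by 0.51 (SE 0.0807, adjusted p = 0.000103) in Combo and by 0.09 (SE 0.0855, adjusted p = 0.64) in PI3Ki. Acss2, which makes acetyl-CoA from acetate, rose in Combo by 0.34 (SE 0.0762, adjusted p = 0.00203), with means of 55.98 ± 1.8 CPM in Vehicle and 70.6 ± 8.68 in Combo (SD), and all Combo tumors above all Vehicle tumors. Acss2 shares 927 of 10163 exon bases with genes on the other strand. Acly was at 197, 198, 197, 228 and 223 CPM in Vehicle and 134, 202, 154, 165 and 161 in Combo. It fell in Combo by 0.35 (SE 0.0963, adjusted p = 0.00694). Combo 2 lay within the Vehicle range and the other Combo tumors below it.

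Acaca, acetyl-CoA carboxylase, and Fasn, fatty acid synthase, which together build palmitate, were called in none of the comparisons with Vehicle. Acaca was at 66.9, 57.2, 61.4, 94.3 and 89.5 CPM in the Vehicle tumors, 52.8, 47.7, 72.2 and 58.2 in PI3Ki, 88.99, 101, 89.8 and 84.7 in SHP2i and 61.9, 108, 84.98, 71.7 and 75.5 in Combo. The Vehicle tumors themselves ranged widely, and each treated group overlapped them. Fasn was at 289, 194, 200.3, 376 and 307 CPM in the Vehicle tumors, 222, 160.3, 233 and 201 in PI3Ki, 297, 328, 319 and 321 in SHP2i and 173, 433, 347, 184 and 193 in Combo. Combo 2 and Combo 3 were above all PI3Ki tumors and the other 3 Combo tumors were below every Vehicle tumor. The log2 fold change of Fasn was -0.42 (SE 0.254, adjusted p = 0.4) in PI3Ki, 0.21 (SE 0.252, adjusted p = 0.605) in SHP2i and -0.04 (SE 0.238, adjusted p = 0.907) in Combo, and that of Acaca -0.36 (SE 0.17, adjusted p = 0.26), 0.30 (SE 0.168, adjusted p = 0.243) and 0.12 (SE 0.159, adjusted p = 0.559).

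In Combo, the elongase Elovl6 and the desaturases Fads1 and Fads2 fell, while Scd1 and Scd2 were not called. Elovl6, which extends palmitate to stearate, was at 59.2, 54.3, 51.2, 68.5 and 62.9 CPM in the Vehicle tumors, 60.97, 34.5, 44.8 and 43.8 in PI3Ki, 67.5, 53.6, 57.8 and 51.5 in SHP2i and 30.2, 45.1, 28.7, 29.2 and 28.9 in Combo. All Combo tumors were below all Vehicle tumors, with Combo 2 the highest of them, and Elovl6 changed by -0.87 (SE 0.15, adjusted p = 0.000212) in Combo and by -0.36 (SE 0.158, adjusted p = 0.211) in PI3Ki. Fads1 and Fads2, the desaturases of polyunsaturated fatty acids, both fell in PI3Ki, by 0.41 (SE 0.108, adjusted p = 0.0369) and 0.82 (SE 0.158, adjusted p = 0.00509). Fads1 was at 131 ± 6.95 in Vehicle, 98.99 ± 12.5 in PI3Ki, 135 ± 21.4 in SHP2i and 96.01 ± 10.1 in Combo, and Fads2 at 29.6 ± 3.59 in Vehicle, 16.8 ± 3.89 in PI3Ki, 41.7 ± 6.98 in SHP2i and 17.8 ± 2.76 in Combo (mean CPM, SD). The Fads1 call in PI3Ki was lost in 8 of the 18 fits that left out a single tumor. Both also fell in Combo, by 0.45 (SE 0.102, adjusted p = 0.00192) and 0.74 (SE 0.147, adjusted p = 0.000758). Fads2 was higher in SHP2i by 0.49 (SE 0.153, adjusted p = 0.0452), a call lost in 9 of the 18 fits that left out a single tumor, with an adjusted p of up to 0.123 (without SHP2i 3). Scd2, which desaturates stearate to oleate, was at 679, 486, 569, 677 and 678 CPM in Vehicle, 466, 346, 472 and 413 in PI3Ki and 698, 774, 628, 631 and 756 in Combo. Every PI3Ki tumor was below every Vehicle and Combo tumor for Scd2. It changed by -0.54 (SE 0.124, adjusted p = 0.0163) in PI3Ki, and its value in Combo was 0.17 (SE 0.116, adjusted p = 0.235).

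Scd1, the paralog of Scd2, is the most abundant stearoyl-CoA desaturase of fat tissue, and its values in Combo rest on 2 tumors. It was at 711, 371, 424, 598 and 502 CPM in the Vehicle tumors, 356, 221, 409 and 740.2 in PI3Ki, 647, 598, 794 and 557 in SHP2i and 436, 1162, 2611, 266 and 295 in Combo. Combo 2 and Combo 3 were above all other tumors and Combo 1, Combo 4 and Combo 5 were within or below the Vehicle range. The log2 fold change in Combo was 0.87 (SE 0.503, adjusted p = 0.172), and without Combo 2 and Combo 3, left out after the data were seen, it was -0.67 (SE 0.309, adjusted p = 0.0965). The same 2 tumors had the highest adipocyte marker levels. The summed level of 14 adipocyte markers was 1643 CPM in Combo 2 and 2763 CPM in Combo 3, beside 662 to 910 CPM in the other Combo tumors, 574 to 1057 in Vehicle, 502 to 1216 in PI3Ki and 1085 to 1488 in SHP2i. Of these markers, 6 of 14 were called higher in Combo, beside 23.9% of all genes. Among them were Cidec at 1.75 (SE 0.455, adjusted p = 0.00527) and Fabp4 at 0.99 (SE 0.322, adjusted p = 0.0193). In PI3Ki and in SHP2i edgeR called 0. An unadjusted p under 0.05 was found for 2 and 6 there, beside 19.5% and 29.3% of all genes. With the mean level of the adipocyte markers as a covariate, Scd1 was at -0.41 (SE 0.262, adjusted p = 0.223) in Combo. Without Combo 2 and Combo 3, Fasn was called lower in Combo, at -0.60 (SE 0.181, adjusted p = 0.0161). The sterol enzymes did not rest on these tumors. Without them 17 of the 18 stayed lower in Combo, with Tm7sf2 lost at an adjusted p of 0.122, and with the covariate all 18 did. Me1 stayed higher with the covariate in SHP2i, at 0.57 (SE 0.0977, adjusted p = 0.00188), and in Combo, at 0.53 (SE 0.0879, adjusted p = 0.000192).

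**Figure D4:**
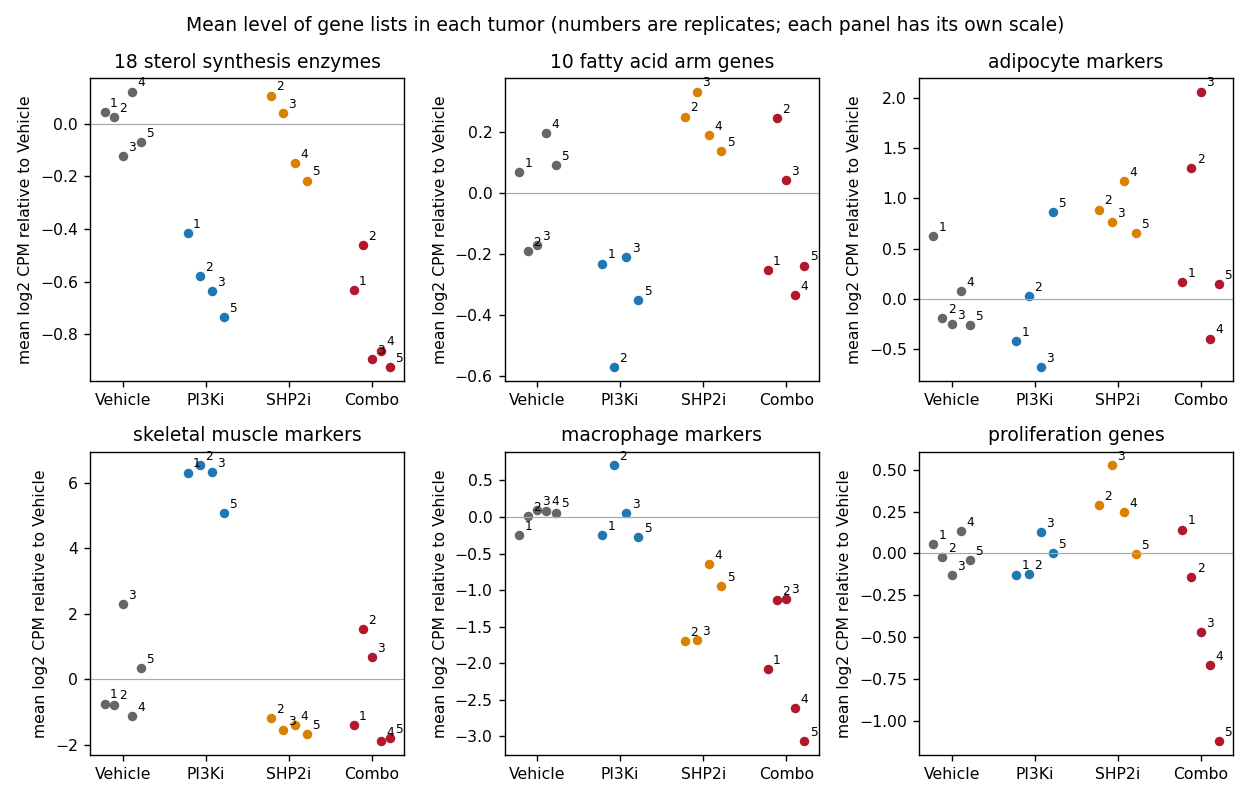
Mean log2 CPM of each gene list relative to the Vehicle tumors, 1 numbered point per tumor, each panel on its own linear axis. The sterol enzymes were low in PI3Ki and Combo, adipocyte markers were highest in Combo 2 and Combo 3, and skeletal muscle markers were high in the PI3Ki tumors alone.

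Markers of other cell types were counted as well. Of all genes, 2.42% were called lower and 2.69% higher in PI3Ki, 6.54% and 5.05% in SHP2i, and 19.7% and 23.9% in Combo. Skeletal muscle markers were higher in PI3Ki for 15 of 15 genes, with a summed level of 949 to 2292 CPM beside 9.03 to 120.1 CPM in Vehicle. In Combo, the muscle sum was 6.2 to 66.8 CPM, and edgeR called 0 muscle markers higher and 1 lower (1 had an unadjusted p under 0.05). In Combo, 9 of 12 macrophage markers, 10 of 12 endothelial markers and 6 of 9 neutrophil markers were lower and Cd163 was higher. The macrophage sum was 493 to 2066 CPM in Combo, 773 to 1794 in SHP2i, 2179 to 4082 in PI3Ki and 2215 to 2873 in Vehicle. In SHP2i, 8 of 12 macrophage markers were lower and their sum overlapped that in Combo. The median log2 fold change of these 12 markers was -1.64 in SHP2i and -2.25 in Combo. Proliferation genes were lower in Combo for 6 of 14 and called by edgeR in PI3Ki for 0 of 14, with 0 at an unadjusted p under 0.05. Of 12 epithelial markers, Krt8 was lower in Combo, at -0.51, and Elf3 higher, at 1.30. Of 10 fibroblast markers, 2 were higher and 4 lower in Combo. The epithelial counts and the count of fibroblast markers higher were under the Combo shares of all genes, so nothing is read from them. The part of muscle and of the other cell types in the changes of the members in PI3Ki, SHP2i and Combo was not tested, apart from the covariate for adipocyte markers.

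The treatments were also compared with each other, in the same fit, where Combo against SHP2i and PI3Ki against SHP2i share the SHP2i tumors. Combo was lower than SHP2i for 22 members and higher for 0 by edgeR, DESeq2 and limma voom, beside 10.3% of all genes lower and 11.8% higher. An unadjusted p under 0.05 was found for 24 members, beside 36.2% of all genes. Those 22 included 16 of the 18 sterol enzymes, with Tm7sf2 at -0.08 (SE 0.125, adjusted p = 0.657) and Ebp at -0.11 (SE 0.0703, adjusted p = 0.288) as the others. The largest of these differences were those of Fdps at -1.30 (SE 0.17, adjusted p = 0.000128), Idi1 at -1.23 (SE 0.194, adjusted p = 0.000446) and Fads2 at -1.23 (SE 0.155, adjusted p = 9.64e-05). PI3Ki and SHP2i also differed, with 19 members higher in SHP2i and 0 lower by all 3 tools, beside 11.6% and 12.8% of all genes. An unadjusted p under 0.05 was found for 24 members, beside 38.3% of all genes. Fads2, at 1.31 (SE 0.166, adjusted p = 6.47e-05), Hsd17b7, at 1.15 (SE 0.201, adjusted p = 0.000775), and Sqle, at 0.92 (SE 0.118, adjusted p = 6.74e-05), were among those higher in SHP2i.

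Against PI3Ki alone, Combo was lower for 7 members and higher for 5, beside 17.8% and 19.9% of all genes, shares too near the background to say anything of the members as a group. Those lower were Dhcr7, at -0.60 (SE 0.117, adjusted p = 0.000896), Fdps, at -0.68 (SE 0.17, adjusted p = 0.00473), Mvd, at -0.70 (SE 0.191, adjusted p = 0.00818), and Elovl6, Tm7sf2, Srebf2 and Stard4, at -0.51, -0.41, -0.36 and -0.35. Those higher were Scd2, at 0.72 (SE 0.125, adjusted p = 0.000336), Me1, at 0.42 (SE 0.0859, adjusted p = 0.00115), Acss2, at 0.40 (SE 0.0812, adjusted p = 0.0012), and Acaca and Sqle, at 0.48 and 0.30. For Srebf2, Fdps and Dhcr7 every Combo tumor was below every PI3Ki tumor, and for Scd2, Me1 and Acss2 every Combo tumor was above, beside 11.2% and 13.2% of all genes. Several sterol enzymes showed no difference that passed, among them Cyp51 with a 95% interval of -0.59 to 0.21, Msmo1 with -0.44 to 0.10 and Hmgcs1 with -0.36 to 0.18. The calls of Stard4, Sqle and Acaca were each lost in several of the fits that left out a single tumor, and with the PI3Ki and Combo tumors fitted alone only Srebf2, Fdps and Dhcr7 were called lower.

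Whether both inhibitors together did more than the sum of their separate log2 effects was tested by the interaction. It was called for 0 of 32 members by edgeR, DESeq2 and limma voom, with 5, 7 and 7 members at an unadjusted p under 0.05, beside 0.864% of all genes called higher and 1.61% lower by edgeR and 18.6% with an unadjusted p under 0.05. The interaction of Mvd was -0.62 (SE 0.268, adjusted p = 0.225) and that of Fdps -0.52 (SE 0.24, adjusted p = 0.253), and that of Hmgcs1 had a 95% interval of -0.44 to 0.32. Without Combo 2 and Combo 3, the interaction of Mvd alone passed, at -0.88 with an adjusted p of 0.0491.

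Further genes of the SREBP pathway, from a list of 26 of which 25 were tested, were called lower for 4 and higher for 1 in PI3Ki, 1 and 1 in SHP2i, and 6 and 6 in Combo. The share called lower was 16% in PI3Ki, beside 2.42% of all genes, and 24% in Combo, beside 19.7%. In Combo both directions were thus near the background. Of all genes, 2.69% were called higher in PI3Ki, and 6.54% lower and 5.05% higher in SHP2i. Elovl1, an elongase of very long chains, changed by -0.26 (SE 0.0751, adjusted p = 0.0496) in PI3Ki and -0.49 (SE 0.0708, adjusted p = 4.41e-05) in Combo. Insig2, the Insig paralog that is not known as an SREBP target, was higher, by 0.42 (SE 0.0902, adjusted p = 0.0116) in PI3Ki and 0.72 (SE 0.0856, adjusted p = 7.62e-06) in Combo, where Insig1 was lower. Mbtps1, a protease of SREBP processing, was higher in Combo by 0.40 (SE 0.102, adjusted p = 0.0051). A list of 14 genes of sterol efflux, esterification and the LXR pathway had 0 called by edgeR in PI3Ki (2 at an unadjusted p under 0.05), 1 higher and 2 lower in SHP2i, and 3 higher and 5 lower in Combo, where 23.9% and 19.7% of all genes were called. Ch25h, which makes a hydroxylated sterol and is expressed in macrophages, changed by -3.67 (SE 0.414, adjusted p = 4.31e-06) in Combo. Mylip, a ubiquitin ligase that LXR is known to induce, changed by 0.94 (SE 0.164, adjusted p = 0.000243), and Lpcat3, a phospholipid remodeling enzyme, by 0.35 (SE 0.0842, adjusted p = 0.00289). Macrophages also express genes of this last list. Its median log2 fold change in Combo was -0.01, beside -2.25 for the 12 macrophage markers. The part of macrophages in the changes of this list was not tested.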

How the data were processed

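Before they deposited the values, the authors made poly(A)-selected directional libraries, trimmed paired-end reads and mapped them with STAR to the mouse genome GRCm38, and QuasR gave the reads per gene. Those raw counts were deposited without normalization. The labels also name a human build, but the identifiers are those of mouse genes. The annotation, tool versions and strand setting are not given in the sources used here. Counts were fitted with edgeR 4.0.16 (R 4.3.3), with TMM scaling, filterByExpr (minimum count 10, total 15) and a mean per group over all 18 tumors. Quasi-likelihood F tests were adjusted by the Benjamini-Hochberg method over 15282 genes, and tested on simulated data. Depth was 21.16 to 26.62 M counts per library, with at least 109 counts for each member in each tumor. The study's fold change limit (absolute log2 above 1) served as an alternative, beside DESeq2 1.42.0, limma 3.58.1 (voom), other scaling, no filter, only the groups compared, a replicate block and each tumor left out.

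All 32 members are named. Values in every tumor are printed for the 12 with the smallest p against Vehicle and for the leader of each step. Scd1, Scd2 (without its SHP2i tumors) and Fasn were added after their values were seen. Outside this rule, Insig1 and Acly are printed for the Vehicle and Combo tumors alone. From the other lists, a few genes (the 4 lowest p and the 2 highest levels) could be named. Elf3 and Insig2 met this rule, and Cd163, which did not, was named after its value was seen. The members and lists were chosen with earlier results of these data known. Exon lengths came from GENCODE vM21 and promoters from RefSeq. Some genes of the other lists are not reported here by name.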

Additional observations from a re-analysis of the deposited data

Results flagged for a closer look

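In 3 of 128 combinations of a member and a group, a tumor stood far from the rest of its group by Dixon's criterion, which chance alone meets in about 1 of 20 groups. Dhcr7 was at 16.1 CPM in PI3Ki 2, beside 19.2 to 19.7 CPM in the other PI3Ki tumors. Elovl6 was at 45.1 CPM in Combo 2, beside 28.7 to 30.2 CPM in the other Combo tumors, and Fads2 at 22.6 CPM in Combo 2, beside 15.9 to 17.5 CPM. Combo 2 was also the Combo tumor with the highest mean level of sterol enzymes.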

How the results depend on the processing

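In the comparisons with Vehicle, called members kept their direction in each of 1215 values under the alternatives and lost their call in 47. Calls were also lost in 13 values of Combo against SHP2i, 42 of Combo against PI3Ki and 23 of SHP2i against PI3Ki. With the limit of the study (absolute log2 above 1), the members lower numbered 2 in PI3Ki, 5 in Combo, 6 in Combo against SHP2i and 0 in Combo against PI3Ki, and those higher 0 in SHP2i, 0 in Combo, 0 in Combo against PI3Ki and 4 in SHP2i against PI3Ki. The members higher in SHP2i numbered 1 without a filter, with the replicate block and with the adipocyte covariate. In Combo against PI3Ki, 3 were higher without a filter, in the groups compared alone, with the block and without Combo 2 and Combo 3, and 3 were lower in the groups compared alone. Without these 2 Combo tumors, which were left out after the data were seen, 1 member (Acss2) was higher in Combo than in SHP2i and Acly, Fasn and Scd1 became lower, the last at -0.97 (adjusted p = 0.0358) in place of 0.56. Against PI3Ki, Insig1, Pmvk, Idi1 and Acly became lower and Sqle, Tm7sf2 and Acaca lost their calls. In the same fit, Fasn became higher in SHP2i than in PI3Ki, 1 interaction (Mvd) was lower, and the median of the members in Combo was -0.63. With each tumor left out in turn, the members lower were 12 (without PI3Ki 5) to 17 in PI3Ki and 23 to 25 in Combo. In SHP2i they were 0 to 1 (Ebp, without SHP2i 3). In Combo they were 20 to 23 against SHP2i and 5 (without PI3Ki 1) to 11 (without Combo 2) against PI3Ki. In SHP2i against PI3Ki they were 0 to 1 (Tm7sf2, without PI3Ki 3 or without Combo 1). Members higher were 1 to 2 in SHP2i and 0 to 1 in Combo against SHP2i (Acss2, without SHP2i 3 or without Combo 3). In Combo against PI3Ki they were 3 (without PI3Ki 2, PI3Ki 5 or Combo 2) to 7 (without Combo 4). In SHP2i against PI3Ki they were 15 to 19. The medians ranged from -0.48 to -0.36 in PI3Ki, -0.04 to 0.02 in SHP2i and -0.56 to -0.42 in Combo. In the comparisons with Vehicle, the sign changed in 29 values, all of members without a call. With a single tumor left out, the ranges in SHP2i were -0.094 to 0.034 for Srebf2, -0.13 to 0.034 for Hmgcs1, -0.023 to 0.098 for Fdft1, -0.12 to 0.0040 for Msmo1, -0.080 to 0.036 for Nsdhl, -0.044 to 0.033 for Sc5d, -0.14 to 0.017 for Elovl6 and -0.055 to 0.12 for Fads1. Those in Combo were -0.0062 to 0.23 for Acaca and -0.29 to 0.10 for Fasn. With the adipocyte covariate, Nsdhl (0.094), Fasn (-0.087) and Scd1 (-0.67) changed sign in SHP2i and Scd1 (-0.41) in Combo. Without Combo 2 and Combo 3, Srebf1 (-0.015), Acaca (-0.10) and Scd1 (-0.67) did so in Combo, and Sc5d (0.0075) in SHP2i with library totals alone. The cause of these changes was not tested. Replicate numbers did not pair the tumors: of 24 same-numbered pairs, 8 had a correlation above 0.1 (-0.42 to 0.33), and 4 of 18 tumors matched their own number best. With the replicate number as a block, 13 members were lower in PI3Ki and 25 in Combo, and Hmgcs1 (0.0014) and Sc5d (0.015) changed sign in SHP2i. Settings that scaled the libraries differently moved the median of all genes by less than 0.1.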
